A study of Caenorhabditis elegans with 7 samples.

Results

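Of 5315 named worm genes with a value on all 7 arrays of a heating course, 30 had a ratio that was low in the first hours at the higher temperature and came back towards its starting point by the end. They were chosen by a pair of measured quantities. The early change is the mean of the 2 and 4 h arrays minus the 0 h array, and had to be -1 or lower. The late change is the mean of the 10 and 12 h arrays minus the mean of the 2 and 4 h arrays, and had to be 0.7 or higher. If the logs are of base 2, which the range of the values is taken to mean but no source used here states, these thresholds are a 2-fold lower ratio and a 1.62-fold higher one. Several gene families and single genes were to be left out by name (the carboxylesterase, acyl-CoA oxidase and PALS genes, T27E4.7, lgmn-1, pycr-1, pxmp-4 and T27C5.10). None of the 48 such genes with 7 values met both thresholds, so 0 genes were removed.

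The study followed adult Caenorhabditis elegans of strain CF512 on spotted arrays read in a pair of colours. Animals were raised at 25 °C, where the strain is sterile, and shifted to 30 °C, and 1 array stands for each of 0, 2, 4, 6, 8, 10 and 12 h, the 0 h array being the unheated baseline. Per the labels, every group is total RNA of this strain, and every array carries the same second RNA, a common reference called HS1. As background, CF512 carries temperature-sensitive mutations that cause sterility, among them a mutation in the fertility gene fem-1. The sterility is therefore shared by the baseline and all heated animals. Whole animals were used, so fewer cells of a type and less RNA per cell cannot be told apart. None of 36 marker genes of intestine, germline, sperm, muscle, cuticle and neurons that were listed for a check is on a named probe, so tissue makeup was not checked here.

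When an animal is heated, the transcription factor HSF-1 drives genes for chaperones, proteins that hold and refold others, while many other transcripts become scarcer. A transcript can become scarcer because less of it is made or because it decays faster, and an array does not separate these.

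No source used here says which RNA is on top of the ratio. The adjacent HSP70 chaperone genes F44E5.4 and F44E5.5 both stood at -4.98 at 0 h, which is the lowest value the file allows once centred, and at 0.91 and 0.83 at 2 h. On that basis the RNA of each time point is taken to be on top, over the reference HS1. With the sign turned, the 30 genes would be high at 2 and 4 h and lower later. The array correlations over probes ran from -0.21 (0 h with 12 h) to 0.45, and probes are not independent replicates.

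By annotation, 27 of the 30 genes are protein-coding, 2 are pseudogenes (C45E5.3 and Y48A6C.2) and 1 is a transfer RNA gene (C05E7.t3), whose product carries an amino acid to the ribosome. Only lido-16 and srlf-9 have a gene symbol, and the other 28 go by a sequence name. The share of sequence names among all named genes was not counted, so nothing is read from this. The sources used here give no role for any of the protein-coding genes, so none is given below.

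Values are log ratios, taken as log2, with the median of each array set to 0. The median over the 30 genes was 0.43 at 0 h, -1.12 at 2 h, -0.80 at 4 h, -0.40 at 6 h, -0.14 at 8 h, -0.01 at 10 h and 0.06 at 12 h. All 30 stood below their own 0 h ratio at both 2 h and 4 h. At 6 h 29 did, at 8 h 28, at 10 h 20 and at 12 h 21. The lowest of the 7 arrays was 2 h for 17 genes, 4 h for 9 and 6 h for 4. The highest was 0 h for 15 genes, 8 h for 1, 10 h for 6 and 12 h for 8. The low ratios at 2 and 4 h and the higher ones at 10 and 12 h are what chose the genes, so those values are a description and not a finding. The counts below 0 h, also at 6 and 8 h, share the 0 h array with that choice, and nothing is read from them.

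**Figure D1:**
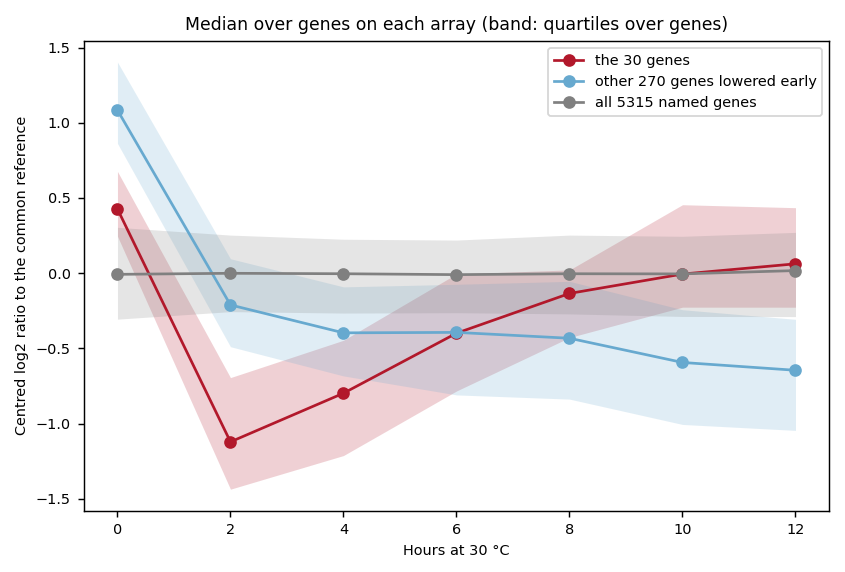
Median centred log2 ratio to the common reference on each array (y axis) against hours at 30 °C (x axis) for the 30 genes, for the other 270 genes lowered early and for all 5315 named genes, with bands from the lower to the upper quartile over genes. The median of the 30 genes is -1.12 at 2 h and 0.06 at 12 h, while that of the other genes lowered early is -0.21 at 2 h and -0.65 at 12 h.

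Both thresholds were met by 7 genes whichever of the 2, 4, 10 and 12 h arrays was left out. They were F19B10.6, F47C12.7, lido-16, F54F2.6, ZK512.8, C46H11.6 and Y49G5A.1. Each of the 7 also met them in the other scaling, probe and missing-value alternatives tried. These checks reapply the thresholds to the arrays that chose the genes, so they describe the 7 and lend them no support.

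F19B10.6 had the highest late change of the 30. Its ratio was -0.10 at 0 h, -2.79 at 2 h, -1.90 at 4 h, -0.52 at 6 h, -1.52 at 8 h, -0.02 at 10 h and 0.54 at 12 h. The 2 and 4 h arrays are the 2 lowest, 8 h dips again, and 10 and 12 h stand above the 0 h array. The early change was -2.24 (SE 0.52) and the late change 2.60 (SE 0.43, limma adjusted p = 0.0674).

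F47C12.7 had the lowest early change of the 30, -2.47 (SE 0.63). Its ratio was 0.67 at 0 h, -2.19 at 2 h, -1.41 at 4 h, -0.01 at 6 h, 0.41 at 8 h, 1.10 at 10 h and -0.48 at 12 h. After 2 h it was higher on each next array up to 10 h, and its 10 and 12 h arrays lay 1.58 log2 units apart. The late change was 2.12 (SE 0.51).

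For lido-16 the ratio was 0.38 at 0 h, -1.14 at 2 h, -2.04 at 4 h, -0.01 at 6 h, -0.84 at 8 h, -0.50 at 10 h and -0.16 at 12 h. Its lowest array was 4 h, and no heated array reached the 0 h ratio. The early change was -1.97 (SE 0.47) and the late change 1.26 (SE 0.38).

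ZK512.8 and C46H11.6 followed an even course. The ratio of ZK512.8 was -0.04 at 0 h, -1.47 at 2 h, -1.13 at 4 h, -0.67 at 6 h, -0.11 at 8 h, -0.10 at 10 h and -0.15 at 12 h. That of C46H11.6 was -0.24 at 0 h, -1.40 at 2 h, -1.30 at 4 h, -0.65 at 6 h, -0.24 at 8 h, -0.11 at 10 h and -0.25 at 12 h. Both were lowest at 2 h and close to their 0 h ratio from 8 h on. At 6 h ZK512.8 had regained 50% of its early change and C46H11.6 63.1%. The late change was 1.17 for each gene, with an SE of 0.26 for ZK512.8 and 0.23 for C46H11.6.

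F54F2.6 and Y49G5A.1 stayed low through 6 h. The ratio of F54F2.6 was 0.30 at 0 h, -1.57 at 2 h, -1.15 at 4 h, -1.08 at 6 h, 0.11 at 8 h, 0.00 at 10 h and -0.27 at 12 h. That of Y49G5A.1 was 0.28 at 0 h, -0.78 at 2 h, -0.79 at 4 h, -1.13 at 6 h, -0.13 at 8 h, 0.54 at 10 h and -0.02 at 12 h. In both, the step up lies between the 6 and 8 h arrays, which the choice of genes did not use. The difference between 8 h and 6 h was 1.19 for F54F2.6 and 1 for Y49G5A.1.

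**Figure D2:**
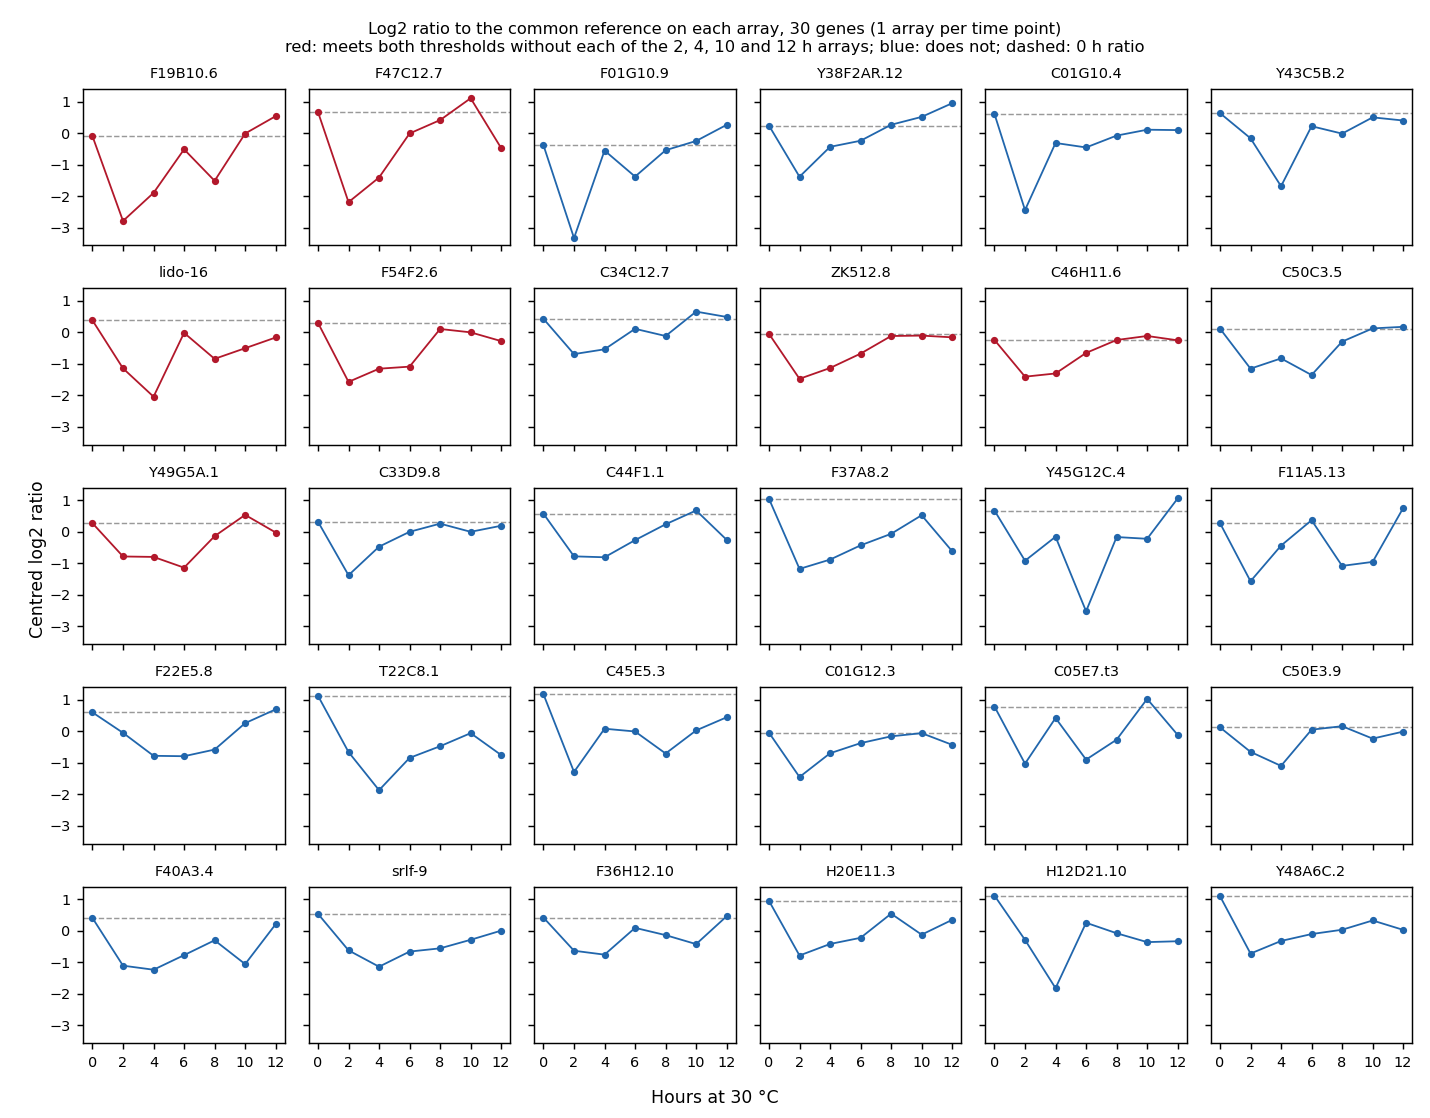
Centred log2 ratio to the common reference (y axis) on the 7 arrays (x axis, hours at 30 °C) for each of the 30 genes, ordered by late change, with the 0 h ratio dashed. The 7 red genes meet both thresholds without each of the 2, 4, 10 and 12 h arrays in turn, and the 23 blue ones do not.

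For 17 of the 30 genes, the 2 h and 4 h arrays were each lower than 0 h by 1 or more, against 3.54% of all named genes. The choice of genes used the 0, 2 and 4 h arrays, so nothing is read from this difference. In the other 13, either the 2 h or the 4 h array was lower by 1 or more, the 2 h array in 10 genes and the 4 h array in 3. The other array was also below 0 h in all 13, from 0.17 below in F01G10.9 to 0.97 below in C34C12.7. The 2 h array was the lower of the 2 in 19 genes.

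Among the 10 genes past that size at 2 h but not at 4 h, F01G10.9 had the lowest single ratio of the 30 genes. It stood at -0.39 at 0 h, -3.33 at 2 h, -0.56 at 4 h, -1.38 at 6 h, -0.55 at 8 h, -0.25 at 10 h and 0.26 at 12 h. At 4 h it was 0.17 below its 0 h ratio, so its early change of -1.56 (SE 0.97) comes almost wholly from the 2 h array. Without the 2 h array its early change was -0.17 and its late change 0.56.

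C01G10.4 was also far lowest at 2 h, with a ratio of 0.60 at 0 h, -2.44 at 2 h, -0.32 at 4 h, -0.46 at 6 h, -0.08 at 8 h, 0.10 at 10 h and 0.09 at 12 h. It was still 0.92 below its 0 h ratio at 4 h and 1.06 below at 6 h. Without the 2 h array its early change was -0.92 and its late change 0.42.

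The rest of the 10 genes stood less low at 2 h, and 3 of them are given here. The ratio of C33D9.8 was 0.33 at 0 h, -1.37 at 2 h, -0.47 at 4 h, 0.00 at 6 h, 0.26 at 8 h, 0.00 at 10 h and 0.20 at 12 h. C34C12.7 had 0.43 at 0 h, -0.69 at 2 h, -0.53 at 4 h, 0.12 at 6 h, -0.11 at 8 h, 0.66 at 10 h and 0.49 at 12 h. C50C3.5 had 0.12 at 0 h, -1.15 at 2 h, -0.82 at 4 h, -1.35 at 6 h, -0.29 at 8 h, 0.13 at 10 h and 0.18 at 12 h, so that its lowest array was 6 h. The 10 and 12 h arrays of C34C12.7 and C50C3.5 both stood above the 0 h ratio. C34C12.7 had the smallest SE of the 30 genes, 0.26 for its early change of -1.04 and 0.22 for its late change of 1.19 (limma adjusted p = 0.0747).

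Of the 3 genes lower by 1 or more at 4 h but not at 2 h, Y43C5B.2 had the largest changes. Its ratio was 0.63 at 0 h, -0.17 at 2 h, -1.69 at 4 h, 0.22 at 6 h, -0.02 at 8 h, 0.50 at 10 h and 0.40 at 12 h. Apart from 4 h, no array lay more than 0.80 below the 0 h ratio. The others were F22E5.8, at 0.60 at 0 h and -0.78 at 4 h, and C50E3.9, at 0.13 at 0 h and -1.10 at 4 h. F22E5.8 stayed low after 4 h, at -0.79 at 6 h, its lowest array, and -0.58 at 8 h.

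srlf-9 was low on both early arrays and came back slowly. Its ratio was 0.54 at 0 h, -0.62 at 2 h, -1.14 at 4 h, -0.66 at 6 h, -0.56 at 8 h, -0.28 at 10 h and 0.01 at 12 h. Each array after 4 h was higher than the one before, and none reached the 0 h ratio. The early change was -1.42 (SE 0.31) and the late change 0.74 (SE 0.25). Its measured neighbour in the order of protein-coding genes and pseudogenes, srlf-10, had an early change of -0.09 and a late change of -0.31.

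How far the ratio came back differed widely among the 30 genes. The late change as a share of the early one ranged from 32.6% (H12D21.10) to 143% (Y38F2AR.12), with a median of 75%. In full, at 100% or more, came back 6 genes, against 52.2% of all named genes with a late mean at or above their 0 h ratio. The late mean minus the 0 h ratio is the early change plus the late change. Both chose the genes, so nothing is read from this difference. The 6 genes were F19B10.6, F01G10.9, Y38F2AR.12, C34C12.7, C46H11.6 and C50C3.5. The share for Y38F2AR.12 rests on the mean of 2 probes that disagreed. Its probe 1 had an early change of only -0.12. Its probe 2 stood at 1.05 at 0 h, 0.35 at 10 h and 0.31 at 12 h. Neither probe by itself fell past the early threshold and then came back in full. A further 17 came back by 50% to 100%, and 7 by less than 50%. The mean of the 10 and 12 h arrays of these 7 was still nearer to their early mean than to their 0 h ratio. Single late arrays could lie nearer to 0 h, as for F37A8.2 with 1.05 at 0 h and 0.53 at 10 h. They were F37A8.2, T22C8.1, C45E5.3, F40A3.4, H20E11.3, H12D21.10 and Y48A6C.2.

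T22C8.1 shows the incomplete form, with a ratio of 1.13 at 0 h, -0.66 at 2 h, -1.87 at 4 h, -0.84 at 6 h, -0.47 at 8 h, -0.06 at 10 h and -0.75 at 12 h. The mean of its 10 and 12 h arrays lay 1.53 below the 0 h ratio. In H12D21.10 the late mean lay 1.46 below it. Its ratio was 1.12 at 0 h, -0.29 at 2 h and -1.82 at 4 h, and without the 4 h array its late change was -0.06.

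In 24 genes, both late arrays stood above both early arrays, against 21.4% of all named genes. The choice of genes used these 4 arrays, so nothing is read from the difference. The 6 whose early and late arrays overlap are Y45G12C.4, F11A5.13, T22C8.1, C45E5.3, C05E7.t3 and H12D21.10. The transfer RNA gene C05E7.t3 was among the most uneven. Its ratio was 0.79 at 0 h, -1.02 at 2 h, 0.42 at 4 h, -0.90 at 6 h, -0.26 at 8 h, 1.03 at 10 h and -0.11 at 12 h.

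The 6 and 8 h arrays were not used to choose the genes. At 6 h, 20 of the 30 genes had passed the midpoint between their early mean and their late mean, and at 8 h 22 had. Of all named genes, 48.4% were nearer to their late than to their early mean at 6 h and 54.1% at 8 h. The midpoint is made of the 2, 4, 10 and 12 h arrays that chose the genes, so nothing is read from this difference. On both arrays 16 had passed it, 4 at 6 h only, 6 at 8 h only and 4 on neither. The 4 on neither array were Y45G12C.4, F22E5.8, C05E7.t3 and srlf-9. The mean of 6 and 8 h was higher than that of 2 and 4 h in 27 genes, against 41.5% of the other 270 genes lowered early and 49.3% of all named genes, and the median difference over the 30 genes was 0.78. That difference shares the 2 and 4 h arrays with the choice of genes, so it is not independent of it.

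The step between the 8 h and 6 h arrays shares no array with the choice, and has 1 array at each end and no test. The 8 h ratio was higher in 22 of the 30 genes, with a median difference of 0.37 and a range from -1.45 (F11A5.13) to 2.36 (Y45G12C.4). Among the other 270 genes lowered early, 47% were higher at 8 h, with a median of -0.01. Among all named genes 50.3% were, with a median difference of 0.00. Of the unnamed probes, 41 of 8054 (0.509%) met both thresholds, close to the 0.564% of named genes, and 24 of these 41 were higher at 8 h, with a median of 0.09. The 8 genes that were not higher at 8 h were F19B10.6, Y43C5B.2, lido-16, C34C12.7, F11A5.13, C45E5.3, F36H12.10 and H12D21.10.

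**Figure D3:**
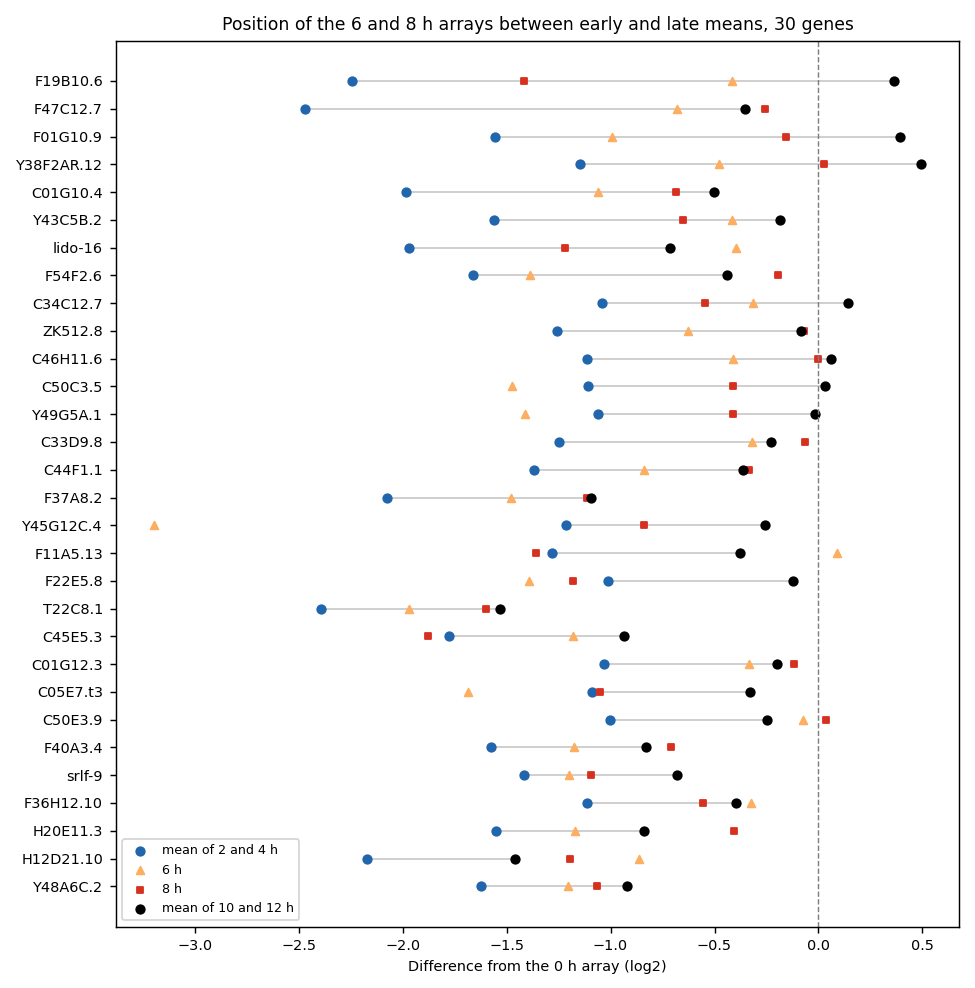
Difference from the 0 h array in log2 units (x axis) for each of the 30 genes (y axis, ordered by late change), with the mean of 2 and 4 h as blue circles, 6 h as orange triangles, 8 h as red squares and the mean of 10 and 12 h as black circles, joined early to late by a grey line. At 8 h, 22 of the 30 squares lie past the middle of the grey line, and 6 of the black circles lie at or right of 0.

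A linear model with limma gave an error to these differences. It fitted 1 mean each for 0 h, for 2 and 4 h, for 6 and 8 h and for 10 and 12 h over 13369 features, so the spread comes from neighbouring heated arrays and the 0 h array is assumed to vary like them. None of the 30 genes passed an adjusted p of 0.05 in any of 4 comparisons. For 2 and 4 h against 0 h, 1.31% of all features passed, and the lowest adjusted p among the 30 genes was 0.0534 (Y48A6C.2, -1.62, SE 0.29). For 10 and 12 h against 2 and 4 h, 0.187% passed, and the lowest was that of F19B10.6. For 10 and 12 h against 0 h, 6.28% passed, and the lowest among the 30 was 0.118 (Y48A6C.2). For 6 and 8 h against 2 and 4 h, 0% passed with limma, the only tool run, with 1112 features at an unadjusted p under 0.05. At an unadjusted p under 0.05 there were 26 of the 30 genes (against 13.8% of all features) for 2 and 4 h against 0 h and 21 (against 13.2%) for 10 and 12 h against 2 and 4 h. For 10 and 12 h against 0 h there were 4 (against 22.7%), and for 6 and 8 h against 2 and 4 h 12 (against 8.32%). All of these comparisons share arrays with the choice of the genes, and nothing is read from the counts. On simulated data, 21.6% of changes of 2 log2 units were called between 2 and 4 h and 0 h, and 58.9% between 10 and 12 h and 2 and 4 h. For changes of 1 log2 unit the shares were 0.3% and 2.35%, so a change of that size was mostly not called in the simulation. The simulated noise had the residual spreads of the fit, and few of the 13369 features were changed in each data set. The shares depend on these settings.

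A low reading at 2 and 4 h enters the early change with a minus and the late change with a plus, since both quantities use these arrays. The 2 early arrays lay further apart in the 30 genes than elsewhere. The median gap between 4 h and 2 h was 0.74 in the 30 genes, against 0.41 in the other 270 genes lowered early and 0.27 in all named genes. The gap between 12 h and 10 h was 0.43, against 0.39 and 0.29. Between the 8 h and 6 h arrays, which the choice did not use, the gap was 0.45, against 0.30 and 0.25. The median SE of the early change was 0.45 in the 30 genes, against 0.37 and 0.31. The part of this spread in the choice of the 30 genes was not tested.

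At 0 h, 25 of the 30 genes had a ratio above 0, with a median of 0.43. The other 270 genes lowered early stood higher at that time, with a median of 1.08 and 269 above 0, and 49% of all named genes were above 0. The 5 genes below 0 at 0 h were F19B10.6, F01G10.9, ZK512.8, C46H11.6 and C01G12.3. The same 0 h array enters every early change, and it had the widest spread over probes (SD 0.63, against 0.50 to 0.59 on the heated arrays).

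**Figure D4:**
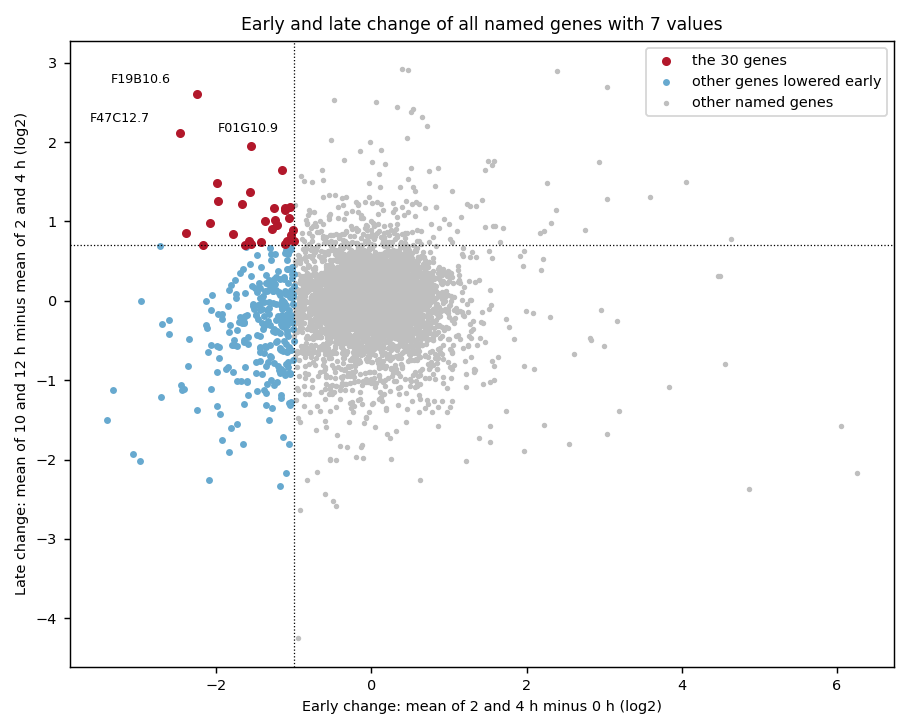
Early change (x axis, mean of 2 and 4 h minus 0 h, log2) and late change (y axis, mean of 10 and 12 h minus mean of 2 and 4 h, log2) of the 5315 named genes, with the thresholds dotted. The 30 genes fill the upper left corner with F19B10.6 highest, and many lie close to a dotted line.

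The thresholds cut through a continuous spread. Just inside the early threshold lay C50E3.9 (-1.0005), F22E5.8 (-1.01) and C01G12.3 (-1.03), and just outside it idpc-6 (-0.98), F54E2.1 (-0.91) and T10B10.4 (-0.90). Just inside the late threshold lay Y48A6C.2 (0.70), H12D21.10 (0.71) and H20E11.3 (0.71), and just outside it F44F1.1 (0.69), R07G3.8 (0.68) and T03F6.4 (0.67). F54E2.1 also had a low at 2 and 4 h and its highest array at 12 h. Its ratio was -0.30 at 0 h, -1.45 at 2 h, -0.99 at 4 h, -0.79 at 6 h, -0.17 at 8 h, 0.15 at 10 h and 0.56 at 12 h.

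Among the genes with smaller late changes, C44F1.1 had an early change of -1.37 and a late change of 1.004. C45E5.3 had -1.78 early and 0.84 late, F40A3.4 -1.58 and 0.75, and H20E11.3 -1.55 and 0.71. The late change was 0.89 for F22E5.8, 0.83 for C01G12.3 and 0.75 for C50E3.9, all near the early threshold. F11A5.13 had an early change of -1.28 (SE 0.83), with ratios of 0.37 at 6 h and -1.08 at 8 h, so its course went up and down more than once. The pseudogene Y48A6C.2 had a ratio of 1.10 at 0 h, -0.72 at 2 h, -0.32 at 4 h, -0.10 at 6 h, 0.04 at 8 h, 0.33 at 10 h and 0.03 at 12 h.

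There are 4 genes on 2 probes each, and their gene values are means over whichever probes had a value. The ratio of Y38F2AR.12, the mean of its probes, was 0.24 at 0 h, -1.39 at 2 h, -0.44 at 4 h, -0.24 at 6 h, 0.26 at 8 h, 0.51 at 10 h and 0.95 at 12 h. It was lowest at 2 h, and the 8, 10 and 12 h arrays stood above 0 h. Its probes disagreed at 0 h, with -0.57 on probe 1 and 1.05 on probe 2. The early change was -0.12 on probe 1 and -2.18 on probe 2, while the late change was 1.82 and 1.47, so the late change was similar on both probes and the early change was not. Both probes were lowest at 2 h, at -1.26 on probe 1 and -1.52 on probe 2, and at 4 h probe 1 stood at -0.12, above its 0 h ratio. For F36H12.10 the early change was -0.23 on probe 1 and -1.99 on probe 2, and the mean of both gave -1.11 early and 0.72 late.

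F37A8.2 had no probe with a value on all 7 arrays. Its 0 h value of 1.05 came from probe 2 alone and its 2 h value of -1.17 from probe 1 alone, so the early change of -2.08 sets different probes against each other. In Y45G12C.4 the 12 h value of 1.06 came from probe 1 alone and the values from 0 to 8 h from probe 2 alone, with a gene value of -1.21 early and 0.96 late. Without such mixed values, from complete probes only, 27 of the 30 genes met both thresholds, and F37A8.2, Y45G12C.4 and F36H12.10 did not. Only 15 of the 5315 named genes had no complete probe. Across 160 named genes with 2 complete probes, the probes differed by a median of 0.38 in the early change and 0.37 in the late change.

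**Figure D5:**
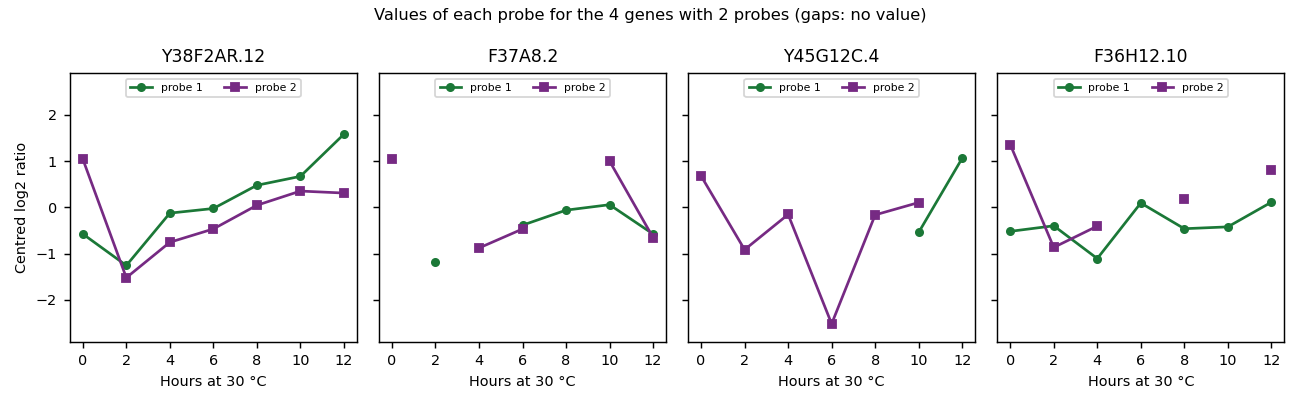
Centred log2 ratio (y axis) of each probe against hours at 30 °C (x axis) for the 4 genes with 2 probes, where a missing point is a missing value. For Y38F2AR.12 probe 1 stands at -0.57 and probe 2 at 1.05 at 0 h, and for F37A8.2 the 0 h and 2 h values come from different probes.

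The 34 probes of the 30 genes lie in 18 of the 32 blocks of the array, with at most 4 in 1 block. Gene order was taken from the WBcel235 annotation, counting only protein-coding genes, pseudogenes and the 30 genes. In that order no member is next to another, and the closest pair, F01G10.9 and Y43C5B.2, is 19 genes apart. Other non-coding genes may lie between. Of the 60 immediate neighbours of the 30 genes in that order, 19 had 7 values. Of these 19, 3 had an early change of -1 or lower (plpp-1.2, F21H7.2 and nssp-88), against 5.64% of all named genes. Both thresholds were met by 0 of the 19 and by 0.564% of all named genes, so nothing is read from the 0. The neighbours' median early change was -0.10 and their median late change 0.02.

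Of 26 gene families listed by name, 8 had a named gene and 7 a gene with 7 values. None of their genes met both thresholds, which 0.564% of all named genes did. At so low a share, nothing is read from this. Of all named genes, 5.64% passed the early threshold and 5.23% the late one. The carboxylesterase family, enzymes that cleave esters, had 9 of 23 genes with an early change of -1 or lower and 0 with a late change of 0.7 or higher. Its median was -0.65 early and -0.40 late, against 0.02 and 0.01 over all named genes. Of these 23, 1 was lower at 2 and 4 h than at 0 h with limma, and 6 were lower at 10 and 12 h than at 0 h. Of all features, 1.31% passed the first of these comparisons and 6.28% the second, in either direction. Both measured acyl-CoA oxidases, enzymes of fatty acid breakdown in peroxisomes, were past the early threshold and not the late one, with a median of -2.34 early and -0.18 late. The 18 PALS genes had 0 past the early threshold and 2 past the late one, which 5.23% of all named genes passed. Among 21 solute carriers, proteins that move small molecules across membranes, 3 passed the early threshold and 0 the late one.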

How the data were processed

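The table that the authors deposited lists 19200 probes, with a log ratio, taken here as log2, for 16143 to 16972 of them on each array. Its log base, direction, scanner and normalization are not stated in the labels or the table. No probe of the 30 genes reaches the limits of the file (-5 and 5). Spot intensities were not analysed here, and the precision is limited by having 7 arrays, 1 per time point per the labels.

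Array medians were subtracted. The platform annotation names 7900 probes, 7872 of which matched the WBcel235 gene table by gene number and took its names, and probes of 1 gene were averaged (7534 genes). Unnamed probes stayed separate features. limma 3.58.1 in R 4.3.3 fitted 4 means with 3 residual degrees of freedom, with Benjamini-Hochberg adjustment over 13369 features, and was tested on 20 simulated data sets per comparison. The genes, lists and tests were chosen with earlier results of these data known. The 14 genes with the highest late change and those with a gene symbol have every value printed. Others with every value printed (F54E2.1, T22C8.1, C05E7.t3 and Y48A6C.2) were chosen after their values were seen. Alternatives were other scalings, probe handling, missing values, a robust prior and leaving out each heated array, and complete probes only, added after seeing the data.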

Additional observations from a re-analysis of the deposited data

How the results depend on the processing

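The 0 h array cannot be left out, and the cause of each shift was not tested beyond fewer arrays or more features entering a fit. No paired analysis was possible because a time point holds a lone array. For 2 and 4 h against 0 h, the 175 features past the threshold (49.7% higher) became 63 with quantile normalization (69.8% higher) and 69 with equal median absolute deviation (59.4% higher), and leaving out each heated array gave 48 to 163. For 10 and 12 h against 2 and 4 h, 25 features (28% higher) became 42 without centring, 10 with quantile normalization (40% higher), 6 with equal median absolute deviation (16.7% higher), 40 with limit values set to missing and 2 with up to 1 missing array (0% higher), and leaving out each array gave 0 (2 h) to 11 (4 h). For 10 and 12 h against 0 h, 840 (28.9% higher) became 299 with quantile normalization (41.8% higher) and 455 with equal median absolute deviation, and leaving out each array gave 471 to 713. For 6 and 8 h against 2 and 4 h every alternative gave 0.

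Named genes meeting both thresholds numbered 52 with up to 1 missing array and 31 to 66 without each array in turn. Of the 30 genes, 17 still met them without the 2 h array, 22 without 4 h, 24 without 10 h and 20 without 12 h. Against 0 h at 2 and 4 h, the number of the 30 past the threshold was 1 with single probes (Y38F2AR.12, on 1 of its probes) and 0 to 2 without each array. These were H12D21.10 without 2 h, C01G10.4 without 4 h, F47C12.7 and F37A8.2 without 10 h, and F37A8.2 without 12 h. For 10 and 12 h against 0 h the number was 0 to 1, which was H12D21.10 without the 2 h or the 4 h array. Leaving out each array gave H12D21.10 a late change of -0.057 (without 4 h) to 1.474 (without 2 h). Over the alternatives that leave out an array, the median early change of the 30 lay between -1.56 and -1.20 and the median late change between 0.99 and 1.22.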
